A study of Mus musculus with 6 samples.

Results

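Tmprss6, Apol9b, Cela1, Unc5cl, Afp, Gm9008 and Gm156 were 7 genes, of 12546 tested and 55470 listed, that stood lower in all 3 libraries of Elovl1-targeted T cells than in all 3 control libraries and had no known link to Elovl1. They were chosen on this contrast, so their difference between the groups is a description, and their place in the test across all genes supports nothing. sgElovl1 cells were Cas9-expressing OT-I CD8+ T cells that carried a lentiviral guide against Elovl1, and sgNT cells were the same kind of cell with a non-targeting guide. The OT-I T cell receptor recognises an ovalbumin peptide. Donors were OT-I:Rosa26-Cas9 mice on a C57BL/6J background, made from Rag2/OT-I and Rosa26-Cas9 animals, and the vector marks cells with CD90.1. Both groups were transferred into mice with orthotopic KPC_OVA pancreatic tumours, received anti-PD-1, and were sorted from the primary tumour on CD90.1 at day 7. The methods give the mice as young adults without sex selection. Which Elovl1 guide these cells carried was not given in the sources used here. The labels state that the cells of different mice were kept apart as replicates, whereas the names of the deposited tables of sgElovl1 replicates 1 and 2 each join 2 tumour tags, and this was not settled.

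Several of these genes are known for roles outside T cells. Tmprss6 encodes matriptase-2, a membrane serine protease of hepatocytes that cleaves hemojuvelin and so restrains hepcidin, the hormone of iron balance. Afp encodes alpha-fetoprotein, a serum protein of the fetal liver and yolk sac, and Cela1 encodes a chymotrypsin-like elastase. Apol9b belongs to the apolipoprotein L family and is interferon inducible in mice, Unc5cl encodes a death domain protein that activates NF-kB, and Gm156, which RefSeq names Klrh1, encodes a lectin-like receptor of the natural killer gene complex. Gm9008 is a predicted gene with a single annotated transcript.

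Total expected counts were 21980273 to 26059360 in sgElovl1 libraries and 24121976 to 26165380 in sgNT libraries. Elovl1, the targeted gene, had 81.5, 76.6 and 95.4 CPM (read counts scaled to a common library size with TMM factors) in sgElovl1 libraries, against 283, 280 and 255 CPM in sgNT libraries, so the labels matched the guide. All 19 CD8 T cell markers examined were detected, with 29030 to 35500 summed CPM in sgElovl1 libraries and 36290 to 44930 in sgNT libraries, and Rag2 was at 0 counts in every library. Within these sums, Nkg7 averaged 6387 CPM in sgElovl1 and 8561 CPM in sgNT libraries, and Gzmb 5959 and 8736 CPM. Neither of them was called by edgeR (adjusted p = 0.111 and 0.312). Of the 19 markers, edgeR called 5 lower and 1 higher (DESeq2 7 lower and 2 higher), with a median log2 difference of -0.29. The lower ones were Cd8a (-0.45), Cd8b1 (-0.49), Trac (-0.55), Cd7 (-0.52) and Cd247 (-0.36), and the higher one was Cd3e (0.40). All 6 calls were lost when replicate 1 or 2 of either group was left out, and those of Cd8a, Cd247 and Cd3e also without sgNT replicate 3 (adjusted p up to 0.198). Those of Cd7, Cd247 and Cd3e were lost with the replicate number as a block (adjusted p = 0.0697, 0.0689 and 0.0614, edgeR). The part of this shift in the levels of the 7 genes was not tested. The third library of each group stood apart on the second principal component, which held 29.1% of the variance, and held the most tumour epithelial RNA: 16 epithelial markers summed to 43.0, 55.2 and 370 CPM in sgElovl1 replicates 1 to 3 and to between 60.7 and 1177 CPM in sgNT libraries. In such sorted bulk samples, fewer cells of a type and less RNA per cell cannot be told apart.

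These sequences bear on how these genes were counted or where they start. Gm9008 is a near copy of Rnf26, an endoplasmic reticulum ubiquitin ligase gene on chromosome 9, and over 1272 aligned coding bases they differed at 11, an identity of 99.1%. Apol9b and its paralogue Apol9a differed at 14 of 930 aligned coding bases, an identity of 98.5%. The stretches of 100 coding bases with the most differences are shown in the GENCODE M21 annotation of GRCm38, differing bases in capitals. Within the aligned coding bases, only reads over such differences can part the 2 genes of a pair. The untranslated ends were not compared, and reads there may also part them.
Gm9008 (chr6:76497479-76497578, strand minus): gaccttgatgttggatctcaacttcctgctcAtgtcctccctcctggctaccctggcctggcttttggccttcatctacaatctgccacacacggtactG
Rnf26 (chr9:44112797-44112896, strand minus): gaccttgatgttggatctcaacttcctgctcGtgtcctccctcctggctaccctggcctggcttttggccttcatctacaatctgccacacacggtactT
Apol9b (chr15:77735485-77735584, strand plus): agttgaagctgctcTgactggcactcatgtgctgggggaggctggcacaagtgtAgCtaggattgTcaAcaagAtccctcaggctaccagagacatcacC
Apol9a (chr15:77404587-77404686, strand minus): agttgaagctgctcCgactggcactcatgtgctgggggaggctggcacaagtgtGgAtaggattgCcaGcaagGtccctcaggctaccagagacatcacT

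Promoters, taken as 250 bases before to 50 bases after a RefSeq start on GRCm38.p6, matched 5 of the 7 genes. Those of Apol9b and Afp are shown because each held a motif of its known regulators, in capitals. Apol9b held 2 overlapping copies of the interferon response core GAAANNGAA on the minus strand, 36 and 30 bases before the start, a motif that 8.56% of 32851 promoters held on either strand. Afp held the HNF1 motif GTTAAT 105 bases before the start, which 7.10% of promoters held, and a TATAAA 7 bases before it, which 13.6% held. Cela1 and Gm156 also held a TATAAA on either strand, 27 and 237 bases before their starts. Neither Cela1, Unc5cl nor Gm156 held GAAANNGAA or GTTAAT in this window, and none of the 5 genes held the STAT motif TTCNNNGAA, which 8.30% held. For Gm156 the window lay at the start of its longer annotated transcript (2000 bases). The start of its shorter transcript (682 bases) was not examined for motifs.
Apol9b (chr15:77728822-77729121, strand plus): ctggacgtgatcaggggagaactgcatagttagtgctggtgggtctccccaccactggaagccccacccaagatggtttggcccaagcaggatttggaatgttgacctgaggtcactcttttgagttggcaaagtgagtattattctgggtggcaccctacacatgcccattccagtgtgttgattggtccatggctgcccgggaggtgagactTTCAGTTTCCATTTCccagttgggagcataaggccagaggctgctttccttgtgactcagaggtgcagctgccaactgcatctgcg
Afp (chr5:90490464-90490763, strand plus): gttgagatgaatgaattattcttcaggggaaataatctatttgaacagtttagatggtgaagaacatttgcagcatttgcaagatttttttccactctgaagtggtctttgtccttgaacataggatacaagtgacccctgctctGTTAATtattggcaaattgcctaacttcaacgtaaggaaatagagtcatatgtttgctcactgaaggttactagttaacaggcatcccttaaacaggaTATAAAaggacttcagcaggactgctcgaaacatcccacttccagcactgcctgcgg

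The values by library follow in the order of the genes' products, proteases first. Tmprss6 (chr15:78439667-78468634, minus strand) had 3.27, 4.08 and 3.80 CPM in sgElovl1 libraries, against 10.2, 14.1 and 8.57 CPM in sgNT libraries. Every sgElovl1 library lay below every sgNT library, and the fold change was -1.56 ± 0.23 on the log2 scale (SE, n = 3 per group), or 2.95-fold lower. Cela1 (chr15:100674421-100687921, minus strand) had 5.78, 5.06 and 5.99 CPM in sgElovl1 libraries, against 10.3, 13.9 and 14.3 CPM in sgNT libraries, a log2 difference of -1.19 ± 0.19 (SE). The sgElovl1 libraries were the closer together, with a coefficient of variation of 8.66% for Cela1, against 17.1% in sgNT libraries.

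Apol9b (chr15:77729039-77736382, plus strand) had 7.32, 9.80 and 11.5 CPM in sgElovl1 libraries, against 20.5, 27.3 and 26.5 CPM in sgNT libraries, a log2 difference of -1.38 ± 0.19 (SE). Its groups did not overlap, although reads may be split with Apol9a. Apol9a, also interferon inducible, had expected counts of 1.10, 0 and 19.8 in sgElovl1 libraries and 3.37, 7.38 and 102 in sgNT libraries, and was too low to be tested. Summed over both paralogues, the level was 9.85 ± 2.52 CPM in sgElovl1 libraries and 26.3 ± 5.17 CPM in sgNT libraries (SD, n = 3 each), and the groups still did not overlap.

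Unc5cl (chr17:48454901-48539714, plus strand) had 3.81, 5.03 and 3.84 CPM in sgElovl1 libraries, against 10.4, 9.32 and 8.78 CPM in sgNT libraries, a log2 difference of -1.17 ± 0.21 (SE). Its coefficient of variation of 8.68% in sgNT libraries was the lowest of the 7 genes there. Afp (chr5:90490737-90508907, plus strand) had 3.16, 2.73 and 5.49 CPM in sgElovl1 libraries, against 7.07, 11.2 and 6.95 CPM in sgNT libraries, a log2 difference of -1.16 ± 0.30 (SE). Its groups were the closest: the highest sgElovl1 library, replicate 3, was at 5.49 CPM and the lowest sgNT library, also replicate 3, at 6.95 CPM.

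Gm156 (chr6:129766568-129784270, minus strand), the most abundant of the 7, had 13.5, 13.2 and 15.96 CPM in sgElovl1 libraries, against 42.3, 35.5 and 71.7 CPM in sgNT libraries, a log2 difference of -1.81 ± 0.26 (SE). sgNT replicate 3 was far above the other sgNT libraries. Gm9008 (chr6:76495432-76497784, minus strand) was listed at 0 in all 3 sgElovl1 libraries, against expected counts of 139, 142 and 118 in sgNT libraries. With a floor of 3 counts per sgElovl1 library, it was at least 45.1-fold lower than the sgNT mean of 5.45 ± 0.52 CPM (SD, n = 3).

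**Figure D1:**
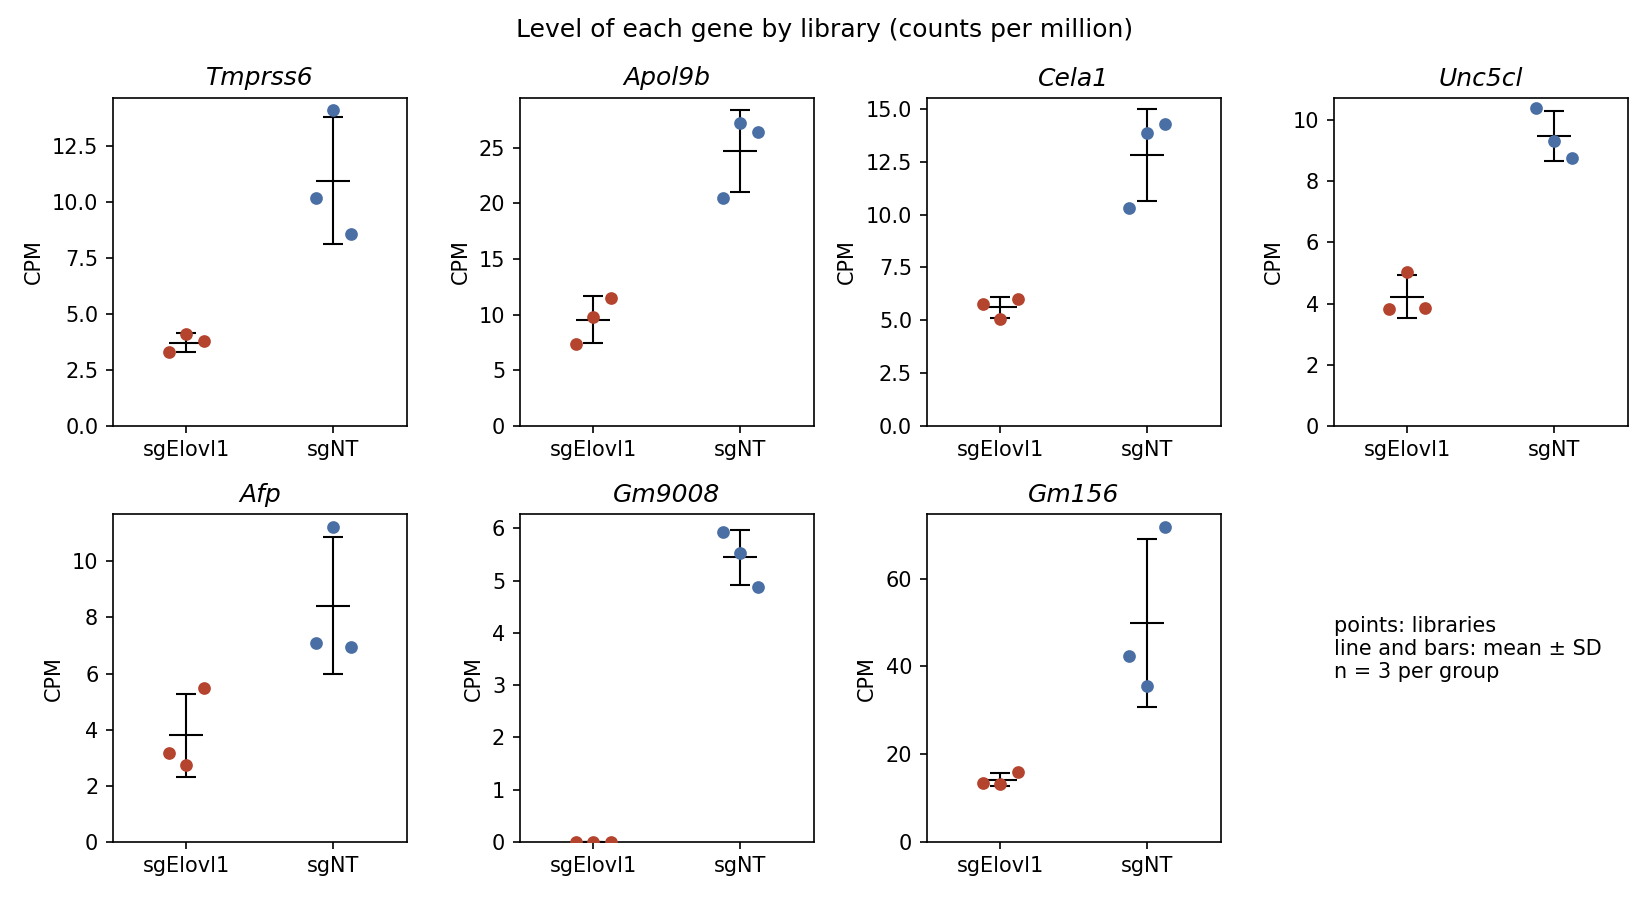
Level of each of the 7 genes in CPM on the y axis, with sgElovl1 libraries on the left and sgNT libraries on the right of each panel; points are libraries and bars the mean ± SD (n = 3). In every panel the sgElovl1 points lie below the sgNT points, with the narrowest gap for Afp, at 5.49 against 6.95 CPM.

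All 7 genes passed the filter on low counts and an adjusted p under 0.05 in edgeR's quasi-likelihood test, as their selection on this contrast would give. Of all tested genes, 5.13% were called lower and 8.64% higher, and 17.7% had every sgElovl1 library below every sgNT library. Afp, with the values above, had the narrowest gap of the 7. Among genes with a log2 difference at least as low but overlapping groups, Adrb1, at -1.16, came closest to a gap. Its highest sgElovl1 library was at 1.04 CPM and its lowest sgNT library at 1.03 CPM. The list does not hold every gene without overlap: Alcam (log2 difference -1.28) had at most 21.5 CPM in sgElovl1 libraries and at least 41.6 CPM in sgNT libraries. For the 7 genes, the direction when single libraries are left out was fixed by the selection. Afp no longer passed when replicate 1 or 2 of either group was omitted (log2 difference -1.52 to -0.88 over the 6 fits), and Gm156 no longer passed without sgElovl1 replicate 1 or 2 (log2 difference -1.99 to -1.45 over the 6 fits).

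Per length, the 7 genes spanned a wide range in sgNT cells. In TPM (transcript abundance scaled for length), Gm156 averaged 25.5 ± 2.55 in sgElovl1 libraries and 108 ± 41.2 in sgNT libraries (SD, n = 3 each), above 87.7% of tested genes in sgNT. Apol9b averaged 11.04 ± 2.61 TPM in sgElovl1 libraries and 27.2 ± 4.07 TPM in sgNT libraries, and Cela1 7.25 ± 0.43 TPM in sgElovl1 libraries and 20.8 ± 2.48 TPM in sgNT libraries. Unc5cl averaged 3.05 ± 0.52 TPM in sgElovl1 libraries and 7.02 ± 1.06 TPM in sgNT libraries. Afp averaged 2.31 ± 0.90 TPM in sgElovl1 libraries and 4.78 ± 1.64 TPM in sgNT libraries, and Tmprss6 1.44 ± 0.20 TPM in sgElovl1 libraries and 4.61 ± 1.41 TPM in sgNT libraries. The order in sgNT cells was thus Gm156, Apol9b, Cela1, Unc5cl, Afp, Tmprss6 and Gm9008, the last at 0 TPM in sgElovl1 libraries and 2.64 ± 0.36 TPM in sgNT libraries, and Afp and Tmprss6 differed by less than their spread.

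Gm9008 was read beside its near copy. Rnf26 had 40.0, 43.4 and 31.1 CPM in sgElovl1 libraries, against 31.5, 30.7 and 34.7 CPM in sgNT libraries, and did not pass the test (log2 difference 0.24, edgeR adjusted p = 0.251). Summed over both genes, the level was 38.2 ± 6.34 CPM in sgElovl1 libraries and 37.7 ± 1.70 CPM in sgNT libraries (SD, n = 3 each), a difference within the spread. Gm9008 took 0 of 1039, 1192 and 681 summed counts in sgElovl1 replicates 1 to 3, for which a floor of 3 counts allows shares of up to 0.289%, 0.252% and 0.441%, and the upper 95% Wilson limits are 0.368%, 0.321% and 0.561%. In sgNT replicates 1 to 3 it took 15.9%, 15.3% and 12.3%, with 95% Wilson intervals of 13.6 to 18.4%, 13.1 to 17.7% and 10.4 to 14.6%, which cover counting error only. Whether the reads came from the Gm9008 locus or from Rnf26 was not tested. Gm44166, annotated on the opposite strand over Gm9008, was at 0 counts in every library.

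**Figure D2:**
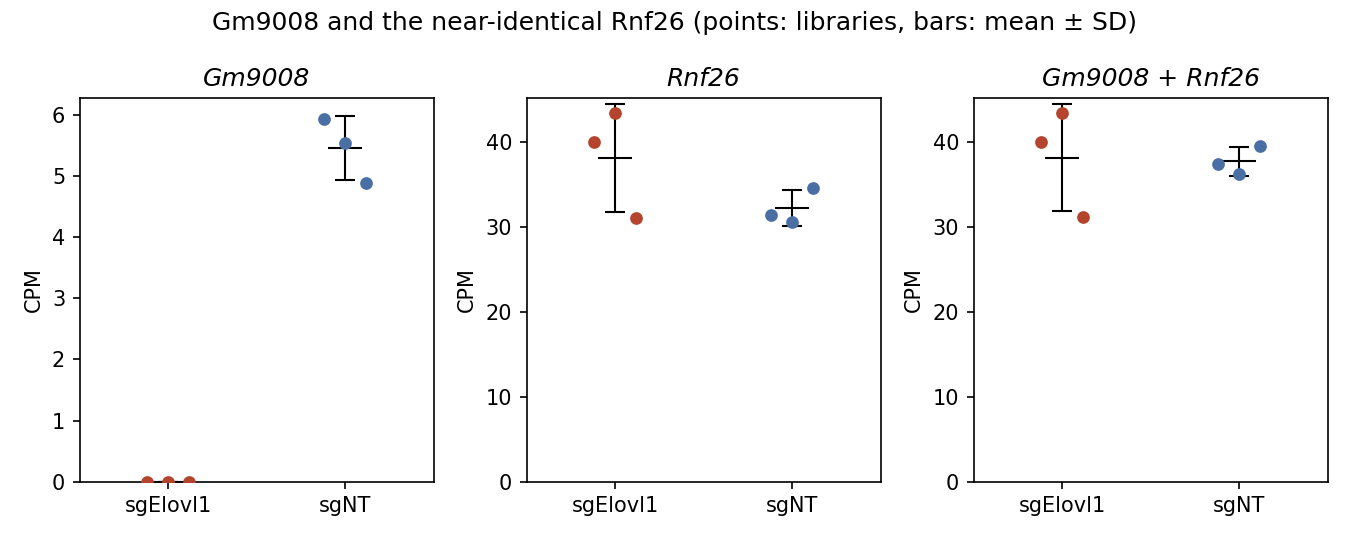
CPM of Gm9008, Rnf26 and their sum on the y axes, with sgElovl1 libraries left of sgNT libraries; points are libraries and bars the mean ± SD (n = 3). Gm9008 is at 0 in every sgElovl1 library, while the sums overlap at 38.2 CPM in sgElovl1 and 37.7 CPM in sgNT.

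The genes also differed in which transcripts were counted, a measure the selection did not use but that comes from the same reads. The deposited tables give a gene length weighted by the estimated share of each transcript. Of the 6 members with several transcripts, 3 had a weighted length that was longer in all 3 sgElovl1 libraries, without overlap, against 9.7% of the 10401 tested genes whose length varied. Among all tested genes, 1009 were longer and 1118 shorter in sgElovl1 libraries, so such a difference was as common in the other direction. Tmprss6 had 3126, 3126 and 2762 bases in sgElovl1 libraries, against 2737, 2693 and 2610 bases in sgNT libraries. Cela1 had 1108, 1108 and 1091 bases in sgElovl1 libraries, against 841, 910 and 959 bases in sgNT libraries. Both are low genes, and a length estimated from few reads is uncertain.

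Gm156 has exactly 2 annotated transcripts, so its weighted length of 880, 889 and 862 bases in sgElovl1 libraries, against 752, 766 and 730 bases in sgNT libraries, gives their shares. The short one holds 6 exons in 682 bases, and the long one holds 7 exons in 2000 bases, with an added first exon and a last exon of 1354 bases that covers the final exon of the short form and part of the intron before it. The long form took 15.1%, 15.7% and 13.7% of transcripts in sgElovl1 libraries, against 5.28%, 6.34% and 3.63% in sgNT libraries. The short form was at 21.8 ± 2.44 TPM in sgElovl1 libraries and 103 ± 40.7 TPM in sgNT libraries (SD, n = 3 each). The long form was at 3.76 ± 0.14 TPM in sgElovl1 libraries and 5.15 ± 0.43 TPM in sgNT libraries, so the lower level of Gm156 lay mostly in the short form.

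**Figure D3:**
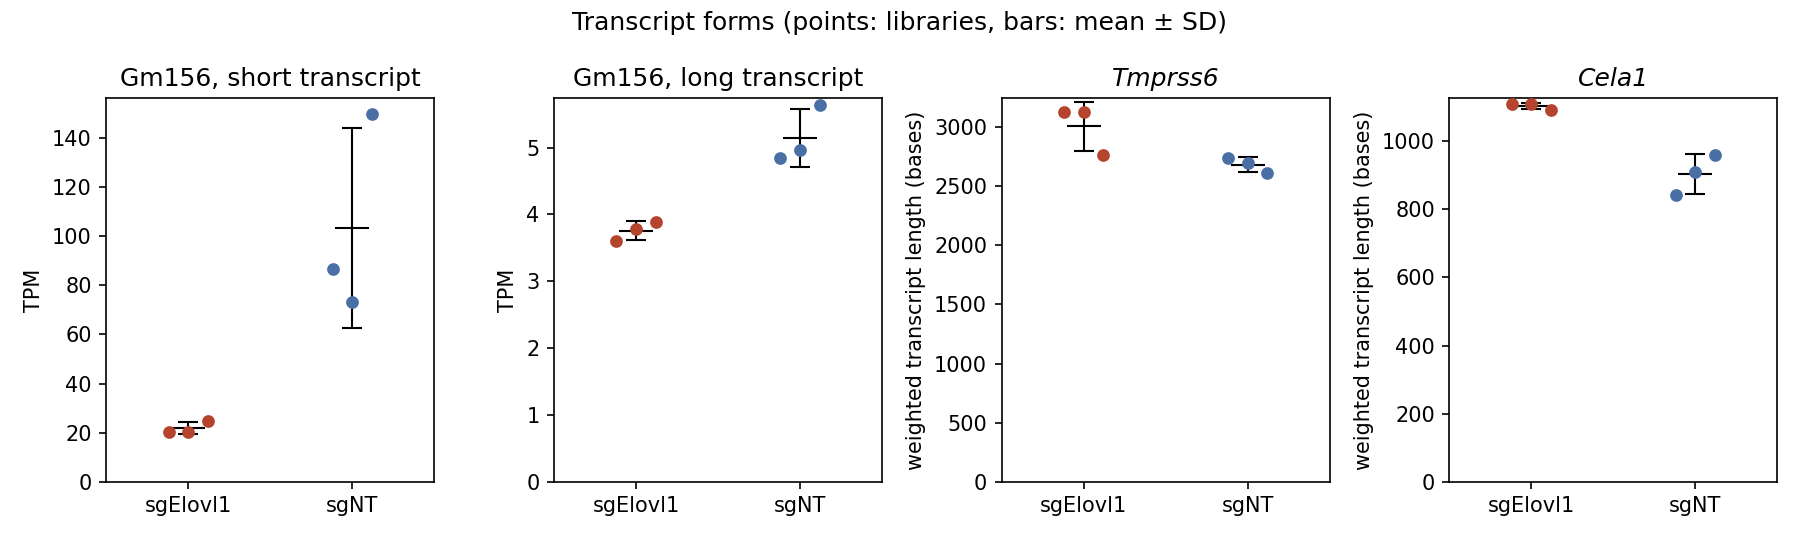
TPM of the short and long transcripts of Gm156, and weighted transcript length in bases of Tmprss6 and Cela1, with sgElovl1 libraries left of sgNT libraries; points are libraries and bars the mean ± SD (n = 3). The short Gm156 form averages 21.8 TPM in sgElovl1 and 103 TPM in sgNT, and the lengths of Tmprss6 and Cela1 are greater in every sgElovl1 library.

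Chromosome position was examined because 3 of the 7 genes lie on chromosome 15 and 2 on chromosome 6. Apol9b and Tmprss6 lie 703 kb apart, while Gm9008 and Gm156 are far apart on their chromosome. Within 1 Mb of the members, 120 other genes were tested, each counted once, of which 13 (10.8%) were called lower and 11 (9.17%) higher, against 5.13% and 8.64% of all tested genes, with a median log2 difference of -0.0066 (median of all tested genes -0.0041). Of these 24 calls, 5 held when any single library was left out, all of them beside Gm156, and 16 held with the replicate number as a block. All 12 called neighbours of the other members lost their calls when sgElovl1 replicate 1, sgElovl1 replicate 2 or sgNT replicate 2 was left out, with adjusted p up to 0.223.

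Near Tmprss6, 6 of 37 genes were called lower and 3 higher, and the sizes were small. Mfng, a glycosyltransferase that modifies Notch, fell by 0.51 on the log2 scale (75.0 ± 3.13 CPM in sgElovl1, 107 ± 3.12 CPM in sgNT, adjusted p = 0.0125), and Myh9, a non-muscle myosin heavy chain, was higher by 0.61 (adjusted p = 0.0152). Eif3d, Txn2 and Nol12 had log2 differences of -0.42, -0.37 and -0.44, and lost their calls with the replicate block (adjusted p = 0.0584 for Eif3d and Txn2 and 0.0598 for Nol12, edgeR). Kctd17, which lies 0.364 kb from Tmprss6 on the other strand, had a log2 difference of 0.53 (adjusted p = 0.182). Il2rb, an IL-2 receptor chain gene 10.6 kb upstream on the same strand, had 2295 ± 79.4 CPM in sgElovl1 libraries and 2671 ± 212 CPM in sgNT libraries (log2 difference -0.22, adjusted p = 0.264).

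Near Apol9b, 3 of 23 genes were called lower and 1 higher, all of them also within reach of Tmprss6. Apol7e, another apolipoprotein L gene 9.75 kb upstream on the same strand, had 104 ± 6.10 CPM in sgElovl1 libraries and 122 ± 11.3 CPM in sgNT libraries (adjusted p = 0.186). Near Cela1, 0 of 27 genes were called lower by edgeR (3 at an unadjusted p under 0.05, and 2 by DESeq2) and 1, the immediate early gene Nr4a1, was higher by 0.46 (adjusted p = 0.0313). Its neighbours Galnt6, 3.89 kb upstream on the same strand, and Bin2 had log2 differences of 0.06 and -0.20 (adjusted p = 0.784 and 0.357). A tested gene on the same strand within 15 kb upstream, as Tmprss6, Apol9b and Cela1 have, is found for 22.2% of tested genes. Read-through from these neighbours was not tested.

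The nearest tested genes on either side of Unc5cl, Apobec2 and Mocs1, had log2 differences of -0.75 and -0.38 (adjusted p = 0.350 and 0.199). Near Unc5cl, 1 of 15 genes was called lower, Tomm6, a subunit of the mitochondrial import pore, which fell by 0.36 on the log2 scale and lost its call with the block (adjusted p = 0.0601). Near Afp, 1 of 8 genes was called lower: Rassf6, a Ras association domain gene 94.2 kb away, had 1.58, 2.48 and 3.38 CPM in sgElovl1 libraries, against 6.13, 6.43 and 5.01 CPM in sgNT libraries (log2 difference -1.24 ± 0.30, adjusted p = 0.0220). Omitting replicate 1 or 2 of either group ended that call, with adjusted p up to 0.108. On the other side, Gm9958 had a log2 difference of -0.19 (adjusted p = 0.802). Between Afp and Rassf6, 5830473C10Rik had a log2 difference of -1.07 (adjusted p = 0.0718). Gm43449, annotated over Afp, and Alb, the albumin gene beside it, were at 0 counts in every library, and Afm had at most 4 counts in sgElovl1 libraries and at most 5 counts in sgNT libraries. Gm9008 had no other tested gene within 1 Mb.

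Near Gm156, in the natural killer gene complex, 5 of 26 genes (19.2%) were called lower and 7 (26.9%) higher, against 5.13% and 8.64% of all tested genes, and neighbouring genes went in opposite directions. Klri2, a lectin-like receptor gene 26.1 kb away and the nearest tested gene on that side, had 7.62, 4.77 and 6.08 CPM in sgElovl1 libraries, against 26.4, 16.3 and 25.5 CPM in sgNT libraries (log2 difference -1.88, adjusted p = 0.00160). Klra17, a Ly49 receptor gene 46.9 kb away on the other side, moved the opposite way, with 11.5, 8.49 and 8.51 CPM in sgElovl1 libraries, against 1.83, 1.40 and 2.19 CPM in sgNT libraries (log2 difference 2.39, adjusted p = 0.000757). Klra3, another Ly49 gene, fell by 2.66 on the log2 scale (adjusted p = 0.00206), whereas Klrc2 and Klrc3, of the NKG2 receptors, were higher by 1.43 and 1.66 (adjusted p = 0.000560 and 0.00210, edgeR). These 5 calls held without any single library. Members of this family are alike in sequence, so reads may be shared among them. Clec7a, Clec12a and Olr1, also among the 7 higher, lost their calls without sgElovl1 replicate 1, sgNT replicate 1 or sgNT replicate 2 (adjusted p up to 0.139, edgeR). Clec7a had 3.35, 1.97 and 12.2 CPM in sgElovl1 libraries, against 0.341, 0.585 and 0.745 CPM in sgNT libraries. The macrophage marker C1qa was also called higher, and the part of macrophage RNA in these calls was not tested.

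**Figure D4:**
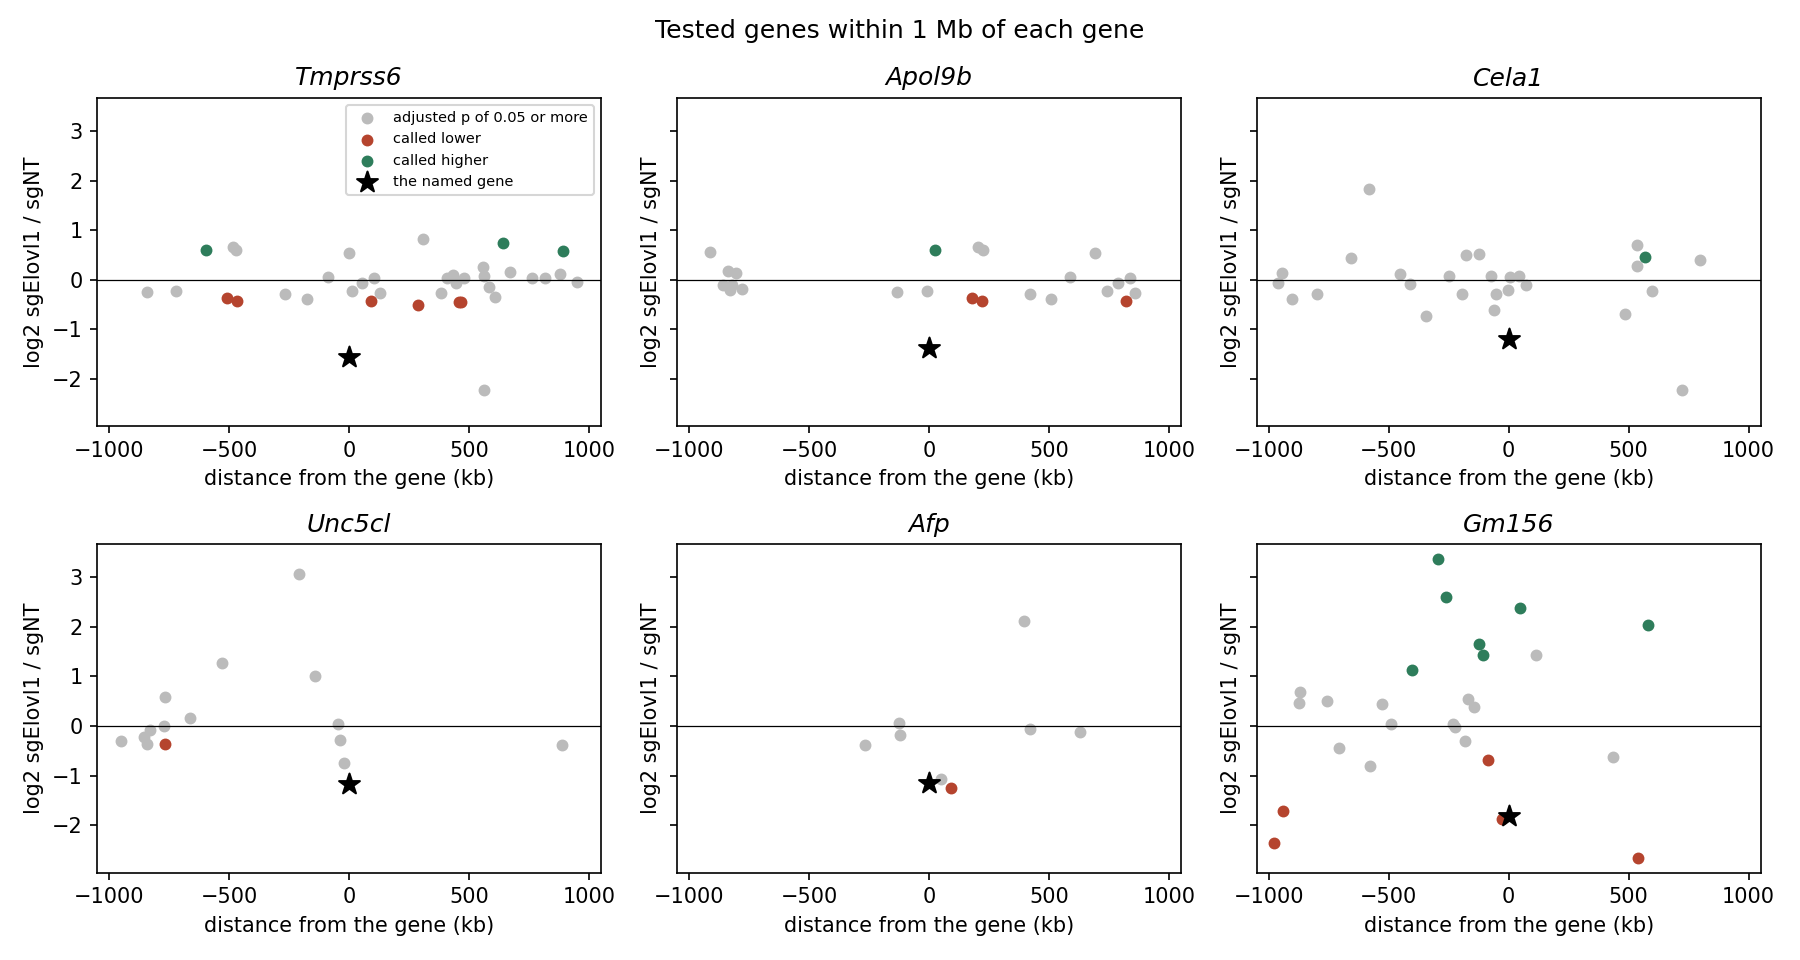
Log2 of sgElovl1 over sgNT on the y axis against the distance in kb on the x axis for every tested gene within 1 Mb of 6 of the 7 genes, the star being the named gene and coloured points genes called lower or higher. Around Gm156 called genes lie on both sides of 0, with Klri2 at -1.88 and Klra17 at 2.39, while Gm9008 has no tested neighbour and is not drawn.

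A difference in strain or donor was looked for in markers fixed in a list made with earlier results known. Of 7 tested genes known to differ between mouse strains or substrains, edgeR called 1 higher and 1 lower. The median log2 difference was 0.15, and 2 were higher and 2 lower at an unadjusted p under 0.05. Casp4 was the higher one, with 28.3 ± 3.63 CPM in sgElovl1 libraries and 14.2 ± 1.33 CPM in sgNT libraries (log2 difference 0.99, adjusted p = 0.00300). An entry for Nnt, whose deletion marks C57BL/6J, was lower, with 13.1 ± 1.34 CPM in sgElovl1 libraries and 18.4 ± 0.90 CPM in sgNT libraries (adjusted p = 0.0448, and 0.0573 with the replicate block). Y-linked genes were expressed in all 6 libraries: Ddx3y was at 63.2 to 69.0 CPM in sgElovl1 libraries and 41.0 to 46.1 CPM in sgNT libraries (adjusted p = 0.00654). Kdm5d and Uty were also higher, by 0.74 and 0.60 on the log2 scale (adjusted p = 0.0185 and 0.0300), but lost their calls when sgElovl1 replicate 1, sgElovl1 replicate 2 or sgNT replicate 2 was left out (adjusted p up to 0.144), and Eif2s3y, the most abundant, had a log2 difference of 0.17 (adjusted p = 0.319, edgeR). Xist had at most 3.89 counts in sgElovl1 libraries and at most 8 counts in sgNT libraries. The calls of Casp4 and Ddx3y held without any single library, whereas that of Nnt held in 1 of 6 such fits, with adjusted p up to 0.185. With a length offset, the calls of Ddx3y, Kdm5d and Uty were lost, while that of Casp4 was kept. Expression alone cannot show a genotype, and whether a strain or locus difference accounts for any of the 7 genes was not tested.

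The families and pathways around each gene were read against the 5.13% of all tested genes called lower and the 8.64% called higher. Of 12 tested genes of the BMP and hepcidin axis around Tmprss6, 0 passed edgeR's test in either direction (median log2 difference -0.08; 0 higher and 2 lower at an unadjusted p under 0.05, and 0 by DESeq2), and Hamp and Hfe2, the hepcidin and hemojuvelin genes, were at 0 counts. Neither of the 2 other tested type II serine proteases passed edgeR, with St14 at -0.37 (adjusted p = 0.101) and Tmprss3 at 1.07 (adjusted p = 0.176). At an unadjusted p under 0.05, 1 was lower and 0 higher, and 0 passed DESeq2. Of 6 tested elastases and elastase inhibitors 0 passed edgeR (2 higher at an unadjusted p under 0.05, and 0 by DESeq2), and of 2 other apolipoprotein L genes 0 passed edgeR, at an unadjusted p under 0.05 or DESeq2.

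Among 32 tested interferon stimulated genes, which Apol9b belongs with by known regulation, 3 were higher and 1 lower, with a median of -0.02. Oas3, a double-stranded RNA sensor, was higher by 1.64 (adjusted p = 0.0122), as were Ifi27l2a by 1.06 (adjusted p = 0.00323) and Ifit2 by 0.64 (adjusted p = 0.0373), and Ifi47, an immunity-related GTPase, was lower, with a log2 difference of -0.42 (adjusted p = 0.0425, and 0.0625 with the replicate block). Of 15 tested UNC5 receptors and NF-kB adaptors, Malt1, a paracaspase of antigen receptor signalling, was higher by 1.02 (adjusted p = 0.00285) and Myd88, the Toll-like receptor adaptor, was lower, at -0.40 (adjusted p = 0.0376, and 0.0545 with the block). Of 6 tested albumin family genes and regulators of Afp, Zbtb20, known in mouse liver as a repressor of Afp, was higher, with 12.3, 11.04 and 10.4 CPM in sgElovl1 libraries, against 5.88, 4.76 and 4.47 CPM in sgNT libraries (log2 difference 1.16, adjusted p = 0.00457). Zhx2, another Afp repressor, had a log2 difference of 0.90 (adjusted p = 0.332). The calls of Ifi27l2a, Malt1 and Zbtb20 held without any single library. Those of Oas3, Ifit2, Ifi47 and Myd88 were lost on omitting any of the first and second libraries of both groups, and for Ifit2, Ifi47 and Myd88 also sgNT replicate 3, with adjusted p up to 0.202.

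Markers of the cells that these genes are known from were low. Beside Cela1, 26 acinar markers summed to 10.7 to 17.7 CPM in sgElovl1 libraries and 10.2 to 12.7 CPM in sgNT libraries, with 0 of 11 tested genes called by edgeR (2 higher at an unadjusted p under 0.05, and 0 by DESeq2) and Prss1 and Amy2b at 0 counts. Beside Afp and Tmprss6, 25 liver markers summed to 5.43 to 24.2 CPM in sgElovl1 libraries and 3.24 to 13.7 CPM in sgNT libraries. Of these, 13 were at 0 in all libraries, Alb among them, and 1 of 3 tested, Hp, the haptoglobin gene, was higher by 3.40 (adjusted p = 0.00626, and 0.0571 without sgElovl1 replicate 2). Hp was low, at 0.809, 1.24 and 1.56 CPM in sgElovl1 libraries and 0.0426, 0.156 and 0.124 CPM in sgNT libraries. Macrophage and monocyte markers summed to 790 to 1717 CPM in sgElovl1 libraries and 555 to 1411 CPM in sgNT libraries, sums held mostly by Spp1, at 476 to 1189 CPM in sgElovl1 libraries and 328 to 1170 CPM in sgNT libraries. The median log2 difference of the 14 tested markers was 2.42. Of these, 2, Adgre1 and C1qa, were called higher by edgeR (5 higher and 1 lower at an unadjusted p under 0.05, and 4 higher by DESeq2), C1qa with adjusted p up to 0.143 when sgElovl1 replicate 2, sgNT replicate 1 or sgNT replicate 2 was left out. The part of such cells in the levels of the 7 genes was not tested.

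By the root mean square difference of centred log2 CPM over the 6 libraries, the gene nearest to each member lay on another chromosome, except for Gm156, whose nearest was Klrb1b, on chromosome 6 (0.16 log2). The nearest were Alcam to Tmprss6 (0.21 log2), Trav7-5 to Apol9b (0.10), Mmp11 to Cela1 (0.11), Slc13a3 to Unc5cl (0.17) and Ncmap to Afp (0.14). Some of these are low: Trav7-5 had 5 to 8 counts in sgElovl1 libraries and 18 to 27 counts in sgNT libraries (log2 difference -1.76). A prior count of 2 shrinks the differences of such genes, so their distances are uncertain. Nearest to Gm9008, at a wide distance of 1.03 and 1.31 log2, were the processed pseudogenes Gm29718 and Gm10259. Gm10259 was also at 0 in all sgElovl1 libraries, against 13.3, 24.4 and 37.6 expected counts in sgNT libraries. These were the nearest of all genes that passed the filter, and likeness here follows largely from the group difference by which the members were chosen.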

How the data were processed

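RNA of 6 libraries (3 per group, grouped by sample title) was sequenced after SMARTer amplification. Per the submitters' processing notes, reads were aligned to mm10 with STAR 2.7.7a, quantified with RSEM 1.3.1 and tested with DESeq2 1.36.0. The RSEM strand setting and annotation release were not given in the sources used here. The authors deposited expected counts, estimated reads per gene, which were rounded for all tests, and TPM and transcript-weighted lengths, which were used as deposited. GENCODE M21 (GRCm38) gave positions for 55230 of 55470 gene IDs. Genes passing filterByExpr (minimum count 10) were fitted with edgeR 4.0.16 in R 4.3.3 (TMM, quasi-likelihood, two-sided, Benjamini-Hochberg over 12546 genes, threshold 0.05), and adjusted p-values measure the spread between these samples. Log2 CPM used a prior count of 2, and coding sequences were aligned with Biopython 1.88. The steps were tested on simulated data. The members and lists were chosen with earlier results of these data known. Named were the members, Elovl1, the nearest tested and overlapping genes, up to 5 called genes within 1 Mb, the nearest profiles, and called or most abundant list genes; pairs of near-identical genes were added after their values were seen. Same-numbered libraries deviated together from their group means (correlations 0.212, 0.245 and 0.406), and the replicate number was also fitted as a block. Replicates 1 and 2 also correlated across numbers, at 0.169 (sgElovl1 replicate 1 with sgNT replicate 2) and 0.107 (sgElovl1 replicate 2 with sgNT replicate 1). These values therefore do not show that replicates 1 and 2 were paired by number. The alternatives were DESeq2 1.42.0, RLE scaling, limma-voom 3.58.1, no filter, log2 TPM with a pseudocount of 0.1 or 1, the block, a length offset, leaving out replicate 3 of both groups, and leaving out each library.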

Additional observations from a re-analysis of the deposited data

How the results depend on the processing

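The 7 genes were chosen for groups that do not overlap, so their negative log2 differences under the 15 alternatives, with 5 to 7 of them past the threshold in each, are no sign of stability. Across the whole table, 1084 genes were called higher and 643 lower. DESeq2 called 1047 lower, log2 TPM with a pseudocount of 0.1 or 1 called 177 or 162 lower, and a length offset called 564 higher. Without replicate 3 of both groups, 1947 were higher and 2039 lower. Leaving out single libraries gave 279 to 1414 higher and 42 to 1304 lower, and the lowest of both came without sgElovl1 replicate 2.

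Of the genes within 1 Mb, 13 lower and 11 higher calls became 6 lower with TPM under either pseudocount, 5 higher with a length offset, and 27 lower and 25 higher without replicate 3 of both groups. Single libraries left out gave 2 to 20 lower and 3 to 13 higher. With the replicate number as a block, 1119 genes were higher and 557 lower, and 11 higher and 9 lower lay within 1 Mb. All 7 genes kept their calls with the block. The cause of these shifts was not tested, beyond the fewer samples of the fits that leave libraries out. At expected counts of 75 to 362 per library, changes in Tmprss6, Cela1, Unc5cl and Afp rest on few reads.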
